A study of Homo sapiens with 8 samples.

Results

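Cohesin is the ring-shaped protein complex that holds sister chromatids together from replication to anaphase and folds interphase chromatin into loops. Its core is made of the ATPase pair SMC1A and SMC3, the kleisin RAD21, which closes the ring and is cut by separase at anaphase, and 1 of the alternative subunits STAG1 and STAG2. NIPBL loads the ring on DNA and drives loop extrusion, PDS5A and PDS5B bind the kleisin and regulate release and acetylation, WAPL opens the ring for release, and sororin, the product of CDCA5, keeps WAPL away from cohesive rings after replication. These 10 genes were taken by symbol from every splicing table of the series, where WAPL appears as WAPAL, and by identifier from the table of cytoplasmic expression. They are 10 of 11691 genes with a splicing event in whole cells and 10 of 9926 in the cytoplasm, and they hold 189 of 89379 whole-cell and 55 of 43559 cytoplasmic events.

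The cells were U2OS, a human osteosarcoma line, transfected with 20 nM of an siRNA against EGFP (control) or of CHERP siRNA #2 and harvested after 48 h. CHERP is a nuclear protein that associates with the U2 snRNP, and 1 siRNA against it was used for sequencing. Stranded poly(A)+ RNA was sequenced from the cytoplasm and from unfractionated (whole) cells, in 8 libraries, 2 per group. No genotype or allele differed between the groups. The deposited tables number the libraries of a group only by their order, here first and second library. The methods call the 2 libraries of a group biological replicates, so each spread rests on n = 2.

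Summed over events, the libraries held 29409956 to 35664568 reads in whole cells and 5370756 to 6580099 in the cytoplasm. The targeted gene was checked first: events of CHERP carried 103 and 77 reads in the control and 3 and 10 in the depleted whole-cell libraries, and 31 and 21 against 3 and 4 in the cytoplasm. In whole cells CHERP fell by 3.45 on the log2 scale (SE 0.57, adjusted p = 0.00139 from limma). The mesenchymal marker VIM had 57402 to 80880 reads per whole-cell library and FN1 had 11893 to 16859. The bone transcription factor RUNX2 had 0 to 18 reads, COL1A1 had no event, and the epithelial CDH1 had 1 to 22 reads. EPCAM, KRT5, KRT14, PTPRC, CD3E and CD74 had no event either. The mesenchymal CDH2 had 87 to 176 reads and COL5A1 had 50 to 144 in whole cells. Of the neuronal genes, SNAP25 had 2 to 15 reads and RBFOX3 had 4 to 51 there. RBFOX3 had 13 to 107 reads in the cytoplasm.

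Abundance was measured in each library as the reads on a gene's skipped exons and alternative splice sites, divided by the effective length of the form they lie on, summed over the gene's events and scaled by median ratios between libraries. Its unit is reads per position. It compares libraries of 1 fraction for 1 gene, and levels between genes only after division by the number of events. A fold change is a difference in log2(abundance + 0.01), tested with limma over all genes that averaged 20 or more reads a library and adjusted by the Benjamini-Hochberg method. In bulk RNA, fewer cells that carry a transcript and less of it per cell cannot be told apart.

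Transcripts of the cohesin genes were lower after CHERP depletion in both fractions. In whole cells 9 of the 10 fell and 1, WAPAL, did not pass the test, whereas in the cytoplasm all 10 fell. Of all genes tested, 17.7% were lower in whole cells and 22.5% in the cytoplasm. None of the 10 was higher. Both CHERP siRNA libraries lay below both EGFP siRNA libraries for 10 of 10 in each fraction, as they did for 34.4% of all genes tested in whole cells and 36.0% in the cytoplasm. The median log2 fold change of the 10 was -0.60 in whole cells and -0.69 in the cytoplasm, against 0.02 and 0.01 over all genes tested. In the cytoplasm 1639 genes were lower and 1884 higher, and with scaling by summed reads the split was 2044 to 1480, with all 10 cohesin genes still lower. CDCA5, PDS5B and RAD21 changed most, to 39.5%, 48.3% and 50.4% of the control level in whole cells. NIPBL, PDS5A and WAPAL changed least, to 81.0%, 80.0% and 95.1%.

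**Figure D1:**
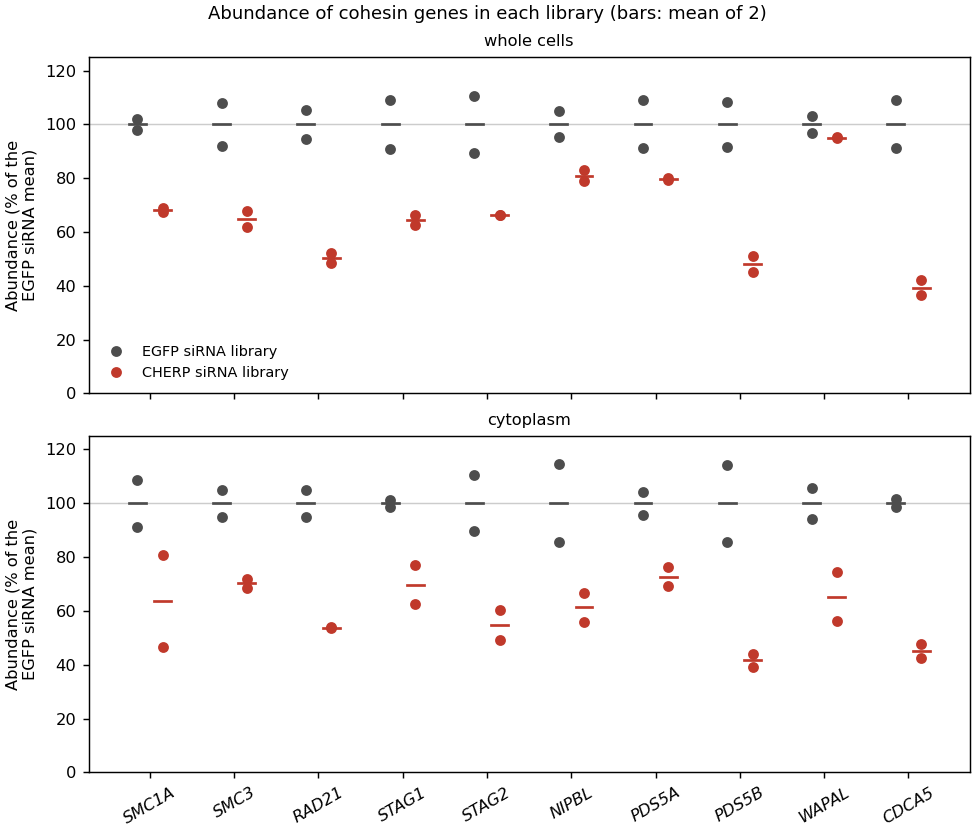
Abundance of the 10 cohesin genes in each of the 8 libraries, as a percent of the mean of the EGFP siRNA libraries of the same fraction. Each point is 1 library and each bar the mean of 2. In both fractions the CHERP siRNA libraries lie below the EGFP siRNA libraries for all 10 genes, with the narrowest gap for WAPAL in whole cells.

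The core ring genes fell together. RAD21 (ENSG00000164754.8) had an abundance of 52.0 and 58.1 reads per position in the whole-cell EGFP siRNA libraries and 26.7 and 28.8 in the CHERP siRNA libraries. The groups were far apart, and the log2 fold change was -0.99 (SE 0.10, adjusted p = 0.000116, limma). In the cytoplasm RAD21 went from 6.26 and 6.92 to 3.56 and 3.54, a log2 fold change of -0.89 (SE 0.09, adjusted p = 1.15e-05, limma). RAD21 was the most abundant of the 10 per event in both fractions, with 6.12 reads per position and event in whole cells under EGFP siRNA, ahead of PDS5A with 2.03. A single one of its exons overlaps an exon of another annotated gene, UTP23, on the opposite strand.

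SMC1A (ENSG00000072501.13), which lies on chromosome X from 53401070 to 53449677 (hg19), had 11.2 and 10.7 reads per position in the EGFP siRNA libraries of whole cells and 7.37 and 7.55 in those of CHERP siRNA. Its partner SMC3 (ENSG00000108055.9), on chromosome 10 from 112327442 to 112365806, had 18.01 and 21.2 against 12.1 and 13.3. Neither gene's groups overlapped, and the log2 fold changes were close, -0.55 (SE 0.11, adjusted p = 0.00382) for SMC1A and -0.62 (SE 0.12, adjusted p = 0.00300) for SMC3 in the limma fit. Without the first CHERP siRNA library the whole-cell call of SMC1A was lost (adjusted p = 0.0678). In the cytoplasm SMC1A had 1.096 and 0.921 against 0.816 and 0.470, and relative to their mean its CHERP siRNA libraries were further apart than those of the other 9 genes. The cytoplasmic log2 fold change of SMC1A was -0.69 (SE 0.24, adjusted p = 0.0321, limma), and without the second CHERP siRNA library it was -0.30 (adjusted p = 0.259). That call was also lost without the first EGFP siRNA library (adjusted p = 0.108). SMC3 had 0.658 and 0.727 against 0.476 and 0.498 there, a log2 fold change of -0.50 (SE 0.19, adjusted p = 0.0447, limma) on 79 to 123 reads per library. That call did not hold with any single library left out (adjusted p 0.0750 to 0.193), while the direction did.

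Both alternative subunits fell in both fractions. In whole cells STAG1 (ENSG00000118007.8) went from 16.9 and 20.3 reads per position to 11.7 and 12.4, and STAG2 (ENSG00000101972.14) from 9.20 and 11.4 to 6.83 and 6.80, with no overlap. The log2 fold changes were -0.63 (SE 0.12, adjusted p = 0.00302) for STAG1 and -0.58 (SE 0.13, adjusted p = 0.00666) for STAG2, again by limma. In the cytoplasm STAG1 went from 2.07 and 2.13 to 1.62 and 1.31, and STAG2 from 1.21 and 1.49 to 0.815 and 0.665. There the fitted changes were -0.53 (SE 0.13) and -0.86 (SE 0.17), both past the threshold. The difference between STAG1 and STAG2 was not tested. Per event, the EGFP siRNA levels of STAG1 (0.529 and 0.634) and STAG2 (0.575 and 0.710) overlapped in whole cells.

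NIPBL (ENSG00000164190.12), the loader, changed least among the genes that passed in whole cells. It went from 25.1 and 27.6 reads per position to 20.8 and 21.9, a log2 fold change of -0.30 (SE 0.10, adjusted p = 0.0442, limma). The call was lost without either CHERP siRNA library (adjusted p 0.411 and 0.268). In the cytoplasm the values were 2.28 and 3.05 against 1.49 and 1.78, and the log2 fold change was -0.69 (SE 0.15, adjusted p = 0.00283).

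The paralogs PDS5A and PDS5B differed in size. PDS5A (ENSG00000121892.10) went from 40.7 and 48.6 reads per position to 35.4 and 35.8 in whole cells, and PDS5B (ENSG00000083642.14) from 2.34 and 2.78 to 1.31 and 1.15. Both pairs of groups were separate, with log2 fold changes of -0.32 (SE 0.11, adjusted p = 0.0459) and -1.05 (SE 0.17, adjusted p = 0.00119). The PDS5A call was lost without the second EGFP siRNA library (adjusted p = 0.0501), without the first CHERP siRNA library (0.324) and without the second (0.291). In the cytoplasm PDS5A had 5.51 and 5.99 against 4.39 and 3.97, and PDS5B had 0.492 and 0.368 against 0.190 and 0.169, the latter on 30 to 89 reads. The cytoplasmic log2 fold changes were -0.46 (SE 0.09, adjusted p = 0.00170) and -1.21 (SE 0.26, adjusted p = 0.00245). The difference between the paralogs was not tested.

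WAPAL (ENSG00000062650.13), the release factor, was the exception in whole cells. Its values were 5.61 and 5.97 reads per position in the control and 5.53 and 5.49 after depletion. The means differed by less than the distance between the EGFP siRNA libraries, and the log2 fold change was -0.07 (SE 0.12, adjusted p = 0.665, limma). In the cytoplasm the values were 0.708 and 0.793 against 0.422 and 0.559, without overlap, and the log2 fold change was -0.62 (SE 0.20, adjusted p = 0.0260). That call did not hold without the second EGFP siRNA library (adjusted p = 0.111) or the first CHERP siRNA library (0.156).

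CDCA5 (ENSG00000146670.5), which codes for sororin, fell most in whole cells. It went from 4.92 and 4.11 reads per position to 1.65 and 1.90, a log2 fold change of -1.34 (SE 0.16, adjusted p = 0.000196, limma). In the cytoplasm it went from 2.82 and 2.90 to 1.36 and 1.21, a log2 fold change of -1.15 (SE 0.12, adjusted p = 1.63e-05). No alternative moved either value out of the range from -1.47 to -1.06.

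**Figure D2:**
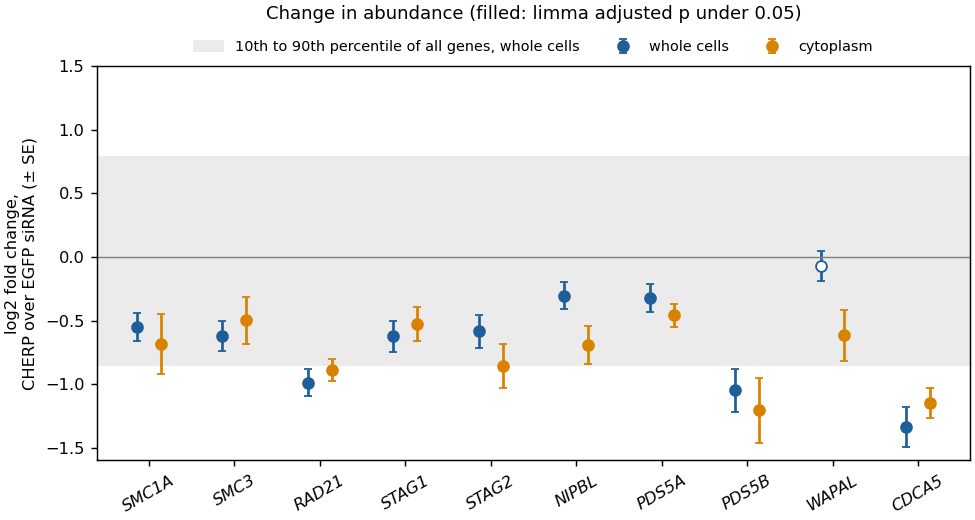
Log2 fold change in abundance of each cohesin gene, CHERP over EGFP siRNA, with its standard error from the limma fit, in whole cells and in the cytoplasm. Filled points passed an adjusted p of 0.05, and the band spans the 10th to the 90th percentile of all genes in whole cells, -0.85 to 0.79. RAD21, PDS5B and CDCA5 lie below the band in both fractions and STAG2 in the cytoplasm, and WAPAL in whole cells is the sole open point.

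The fall was then read exon by exon, since a sum over events could rest on 1 of them. Of the exons with a mean of at least 20 inclusion reads, each exon of RAD21 (7 of 7), SMC1A (6 of 6), PDS5B (5 of 5) and CDCA5 (3 of 3) had both whole-cell CHERP siRNA libraries below both EGFP siRNA libraries. Over the exons of all genes with as many reads this held for 33.4% in whole cells and 33.9% in the cytoplasm. For SMC3 this held for 9 of 10 exons, for STAG2 9 of 10, for STAG1 17 of 19, for PDS5A 15 of 18 and for NIPBL 14 of 17. These counts are of distinct targets, which can overlap and share reads. The longest of the 3 CDCA5 targets spans the others and the intron between them, and those of PDS5A include overlapping forms of the same exon. The log2 ratios of the RAD21 exons spanned only -1.04 to -0.93. For WAPAL 4 of 8 exons were lower without overlap, and the ratios ran from -0.31 to 0.25, on both sides of 0. Another exon, 1 of the 8, was higher without overlap, and the share of such exons over all genes was not taken. Ratios also varied along other genes, from -0.96 to -0.16 in STAG1 and from -0.72 to -0.08 in SMC3. In the cytoplasm fewer exons had reads enough, and all 4 of WAPAL had ratios below 0 (-0.88 to -0.34).

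**Figure D3:**
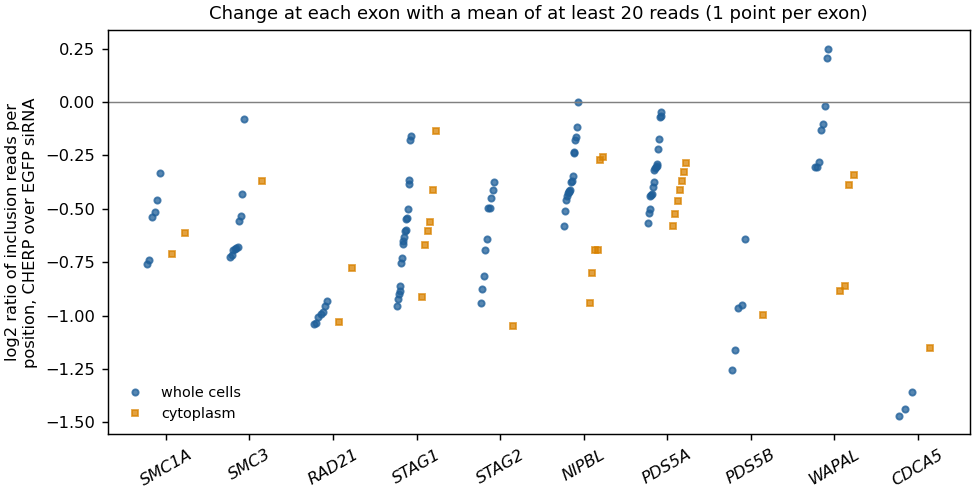
Log2 ratio of scaled inclusion reads per position, CHERP over EGFP siRNA, for each distinct skipped-exon target of the cohesin genes that averaged 20 reads or more. Each point is 1 such target in whole cells (circles) or the cytoplasm (squares), and targets of the same gene can overlap. The exons of RAD21 lie close together near -1.0, and WAPAL in whole cells is the gene whose exons lie on both sides of 0.

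The fractions were compared by the interaction of siRNA and fraction. None of the 10 genes passed, and of 7059 genes tested over the whole series 0% did. WAPAL came nearest, with a cytoplasmic log2 fold change lower by 0.54 than the whole-cell one (95% interval -1.03 to -0.05, limma adjusted p = 0.986). WAPAL was the only member with an unadjusted p under 0.05. Its abundance summed 10 events in whole cells and 4 in the cytoplasm, so this difference is not between the same events. At the exon that starts at 88205999 the log2 ratio was -0.02 in whole cells and -0.86 in the cytoplasm. At the exon that starts at 88232369 it was -0.31 and -0.39. The other genes also summed more events in whole cells than in the cytoplasm. For RAD21 the interval of the difference ran from -0.19 to 0.39 and for CDCA5 from -0.25 to 0.63.

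The deposited expression table of the cytoplasm gives the authors' mean of normalized counts for each siRNA, for genes past the authors' threshold alone, so it has no spread here. It lists all 10 cohesin genes, and for all 10 the authors' mean is lower with CHERP siRNA. Of the 6757 genes listed, 41.8% are lower. The authors' mean of RAD21 was 8296 with EGFP siRNA and 4455 with CHERP siRNA, a ratio of 0.537. That of CDCA5 was 4772 and 2369 (0.496), and that of PDS5B 706 and 323 (0.458). At the other end, the authors' means of WAPAL, 937 and 785, gave a ratio of 0.837, and those of PDS5A, 4313 and 3540, a ratio of 0.821. On the log2 scale these are -0.26 and -0.28, smaller falls than the -0.62 and -0.46 from the events of the cytoplasm. For RAD21 (-0.90 against -0.89) and STAG1 (-0.54 against -0.53) the 2 measures were close. The table names its columns by condition number, and CHERP siRNA was taken as the condition in which CHERP itself has a mean of 209 against 1685.

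Few splicing events of the same genes passed a test. An inclusion level is the share of the form that holds the exon or intron, with the reads of both forms taken per effective length, and inclusion against skipping reads were tested in a quasi-binomial model with Benjamini-Hochberg adjustment within an event type (FDR). The whole-cell events of the 10 genes comprised 143 exon skipping events (SE), 42 pairs of mutually exclusive exons (MXE), 2 choices of 3′ splice site (A3SS), 1 of 5′ splice site (A5SS) and 1 retained intron (RI). Of these, 1 SE event passed and none of the other types did. Among all events, 0.893% of SE, 1.60% of MXE, 1.14% of A3SS, 1.13% of A5SS and 3.26% of RI events passed. In the cytoplasm 0 of 55 member events passed, 0 had an unadjusted p under 0.05, and 0 passed with limma on the log2 odds. The shares over all cytoplasmic events were 0.254% for SE, 0.863% for MXE, 0.372% for A3SS and 0.617% for A5SS.

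Most of the SE events lay near full inclusion or near full skipping under both siRNAs. In 129 of the 143 whole-cell SE events the inclusion level was above 0.9, or below 0.1, in both groups. The median size of the difference in inclusion level was 0.00715 in whole cells, against 0.0202 over all SE events. In the cytoplasm it was 0.0445, against 0.0400 over all SE events. Of the 115 distinct exons, 107 belong to the MANE Select transcript of their gene and 53 have a length that is a multiple of 3, with a median of 111 nt against 114 nt for all 48505 exons of the whole-cell table.

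The event that passed was the inclusion of exon 10 of NIPBL, which rose. This exon, at chr5:36984778-36986403 (hg19, plus strand), is the tenth of 47 in NIPBL-201, lies within the coding sequence and is 1626 nt long, a multiple of 3. Only 0.332% of the exons in the table are as long. Introns of 8273 nt with a GC content of 31.4% and of 9320 nt with 32.3% flank it. In whole cells its inclusion level was 0.741 and 0.694 in the control and 0.921 and 0.944 after depletion, on 832 to 1182 reads per library. The skipping form, exon 9 joined to exon 11, had 23 and 41 reads against 7 and 5, so the groups did not overlap. The mean rose from 0.717 ± 0.034 (SD, n = 2) to 0.933 ± 0.016 (SD, n = 2), with FDR = 0.00919 in the quasi-binomial fit over all SE events. The call was not made by limma on the log2 odds (adjusted p = 0.577) and was lost without the second EGFP siRNA library (FDR = 0.208) or either CHERP siRNA library (0.250 and 0.514).

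The splice sites that take part in this choice are shown because they are the sequences that the inclusion and skipping forms share or compete for. They were read from GRCh37 and are written 5′ to 3′ with exon bases in capitals. The first and the last sites are joined when exon 10 is skipped.
NIPBL exon 9, 5′ splice site, chr5:36976495-36976524: CAAGATAAAGgtaaaataatctcattatta
NIPBL exon 10, 3′ splice site, chr5:36984758-36984787: tatttatctttaaatttcagATAAGCCTTT
NIPBL exon 10, 5′ splice site, chr5:36986394-36986423: TCAAATAAAGgtaagaatacttctactgat
NIPBL exon 11, 3′ splice site, chr5:36995704-36995733: aatttacctttcattaatagGTAGTATAGA
In the 18 bases before the AG, pyrimidines made up 72.2% at exon 10 and 66.7% at exon 11.

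Other events hold the same exon with another partner and had few skipping reads. With skipping to exon 12, the whole-cell inclusion level of exon 10 was 0.967 and 0.965 against 1 and 1, from 2 and 3 skipping reads against 0 and 0. With skipping to exon 13 it was 0.936 and 0.954 against 1 and 1, from 4 and 4 against 0 and 0. Neither passed (FDR 0.784 and 0.772). The MXE event that sets exon 10 against exon 11 had levels of 0.746 and 0.762 against 0.880 and 0.875 and an FDR of 0.0650. These events share reads and are not separate evidence. Of the 189 whole-cell member events 10 had an unadjusted p under 0.05 in the quasi-binomial fit. Of these, 7 were in NIPBL, which held 35 of the 189 events on 23 distinct targets. The share of all events with such a p was not taken.

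**Figure D4:**
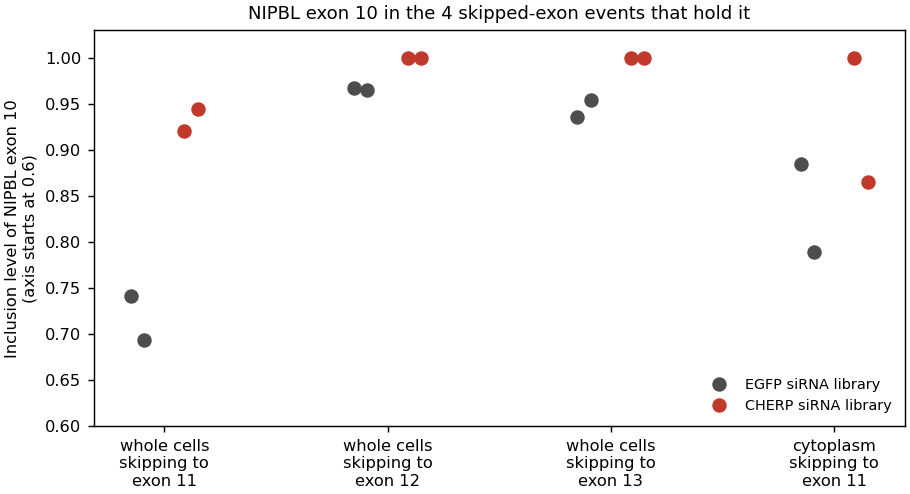
Inclusion level of NIPBL exon 10 in each library, for the 3 whole-cell and the 1 cytoplasmic skipped-exon event that hold it. The axis starts at 0.6. In whole cells the CHERP siRNA libraries lie above the EGFP siRNA libraries, from 0.921 to 1, whereas in the cytoplasm the groups overlap.

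In the cytoplasm the level of exon 10 was 0.885 and 0.789 in the control and 1 and 0.866 after depletion, and the groups overlapped (FDR = 0.762). At most 5 skipping reads per library lay behind these values. The interaction of siRNA and fraction for this exon had an FDR of 0.962, and a difference between the fractions was not detectable at this depth. None of the 43 member events present in both fractions passed the interaction test, and 0 had an unadjusted p under 0.05. Over all SE events the share that passed was 0%.

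By a rule of size, 1 event per gene was also described, the one with the largest difference in inclusion level. It needed groups without overlap, a mean of at least 20 reads and a difference of at least 0.1. Beside NIPBL exon 10 this took 1 exon of SMC3 and 1 of STAG2, and neither passed the test. A difference of at least 0.1 alone was seen in 6 of 143 whole-cell SE events of the 10 genes, against 20.1% of all SE events. In the cytoplasm it was seen in 7 of 48, against 28.8%. The share of all events that met the whole rule was not taken. SMC3 exon 3, of 39 nt and coding, at chr10:112333465-112333503, had whole-cell levels of 0.831 and 0.886 in the control and 0.936 and 1 after depletion (FDR = 0.332). In the cytoplasm its levels were 0.854 and 0.746 against 1 and 1, on a mean of 12 reads. STAG2 exon 32, of 111 nt and coding, at chrX:123224704-123224814, was the one of the 3 exons with levels below 0.5 in every library. Its cytoplasmic levels were 0.225 and 0.383 against 0.209 and 0.132 (FDR = 0.762), on 18 to 41 reads. In whole cells, with a mean of 224.5 reads, they were 0.285 and 0.225 against 0.318 and 0.216 and overlapped. Both exons are shown with 20 intron bases on each side and the exon in capitals, from GRCh37.
SMC3 exon 3: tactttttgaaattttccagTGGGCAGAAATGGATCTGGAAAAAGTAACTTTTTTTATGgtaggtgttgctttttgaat
STAG2 exon 32: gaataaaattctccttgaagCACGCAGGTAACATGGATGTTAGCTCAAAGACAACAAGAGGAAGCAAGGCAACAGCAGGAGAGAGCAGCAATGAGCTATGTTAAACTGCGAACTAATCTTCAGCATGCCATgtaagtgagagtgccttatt

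CDCA5, the gene with the largest fall in whole cells, held the only RI event of the 10 genes. It is the third of 5 introns of CDCA5-201, 85 nt long with a GC content of 52.9%, at chr11:64850872-64850956 (hg19, minus strand). Its inclusion level was 0.0118 and 0.00939 in the control and 0.0201 and 0.0139 after depletion. These are 4 and 3 inclusion reads against 3 and 2, and the FDR was 0.877. The A3SS event of CDCA5 had levels of 1 and 1 against 0.949 and 0.989, from 0 and 0 skipping reads against 4 and 1 (FDR = 0.599). The same intron lies within a 187-nt SE target of CDCA5 and within the longer form of its A5SS event, and neither event passed. It is printed as the intron of the only RI event of these genes, with the intron in capitals and 20 exon bases on each side.
CDCA5 intron 3: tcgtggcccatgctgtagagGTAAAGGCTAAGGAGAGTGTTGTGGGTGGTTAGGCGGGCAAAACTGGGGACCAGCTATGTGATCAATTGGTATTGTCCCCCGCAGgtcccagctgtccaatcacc

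Most genes that work with cohesin were lower too. Of 19 other cohesin genes, 15 could be tested in whole cells, and 12 fell (against 17.7% of all genes), 0 rose and 3 did not pass, with a median log2 fold change of -0.77. The largest falls were in ESPL1, the separase that cuts RAD21 (-1.86, SE 0.18), SGOL1, shugoshin, the protector of centromeric cohesin (-1.61, SE 0.17), the kinase PLK1 (-1.29, SE 0.15) and PTTG1, the separase inhibitor securin (-1.24, SE 0.12). The acetyltransferases ESCO1 and ESCO2, which modify SMC3, fell by 0.80 (SE 0.12) and 1.15 (SE 0.12) on the log2 scale. CTCF, which anchors cohesin loops, fell by 0.75 (SE 0.15). The 3 that did not pass were CHTF18 (-0.76, SE 0.34), MAU2, the partner of NIPBL (0.44, SE 0.41), and the SMC3 deacetylase HDAC8 (0.33, SE 0.15). In the cytoplasm 9 of 12 fell (against 22.5% of all genes) and 0 rose. REC8, STAG3, SMC1B and RAD21L1, which serve meiotic cohesin, were not tested in either fraction.

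Of the other SMC complexes, condensin genes mostly fell and SMC5/6 genes went both ways. Of the 8 condensin genes, which compact mitotic chromosomes, 6 fell in whole cells and 2 did not pass, with a median of -0.81. Over all genes tested in whole cells, 17.7% fell and 1839 of 9660 rose. SMC4 fell by 2.02 (SE 0.13) on the log2 scale, more than any of the 10 cohesin genes. In the SMC5/6 complex, which acts in DNA repair, 5 of the 7 genes tested fell and 2 rose. SMC6 rose by 1.38 (SE 0.15, adjusted p = 0.000122, limma) and NSMCE1 by 0.78 (SE 0.17, adjusted p = 0.00520), while SMC5, the partner of SMC6, fell by 0.92 (SE 0.13). In the cytoplasm SMC6 rose from 0.131 and 0.0858 reads per position to 0.321 and 0.317, and SMC5 fell by 1.17 (SE 0.18) on the log2 scale. The change of NSMCE1 did not pass there (0.45, SE 0.21, adjusted p = 0.107, limma).

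Markers of the cell cycle moved with the cohesin genes. Of the G1/S genes 10 of 11 tested fell in whole cells, with a median of -1.44, and in the cytoplasm 10 of 10, with a median of -1.35. Of the G2/M genes 12 of 12 fell in whole cells (median -1.18) and 9 of 9 tested in the cytoplasm (median -1.20). Over all genes tested, 17.7% fell in whole cells and 22.5% in the cytoplasm. RRM2, a subunit of ribonucleotide reductase, fell by 2.14 (SE 0.12), the helicase subunit MCM6 by 2.10 (SE 0.12) and TOP2A, topoisomerase II alpha, by 1.77 (SE 0.10) on the log2 scale in whole cells. Their part in the fall of the cohesin genes was not tested.

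**Figure D5:**
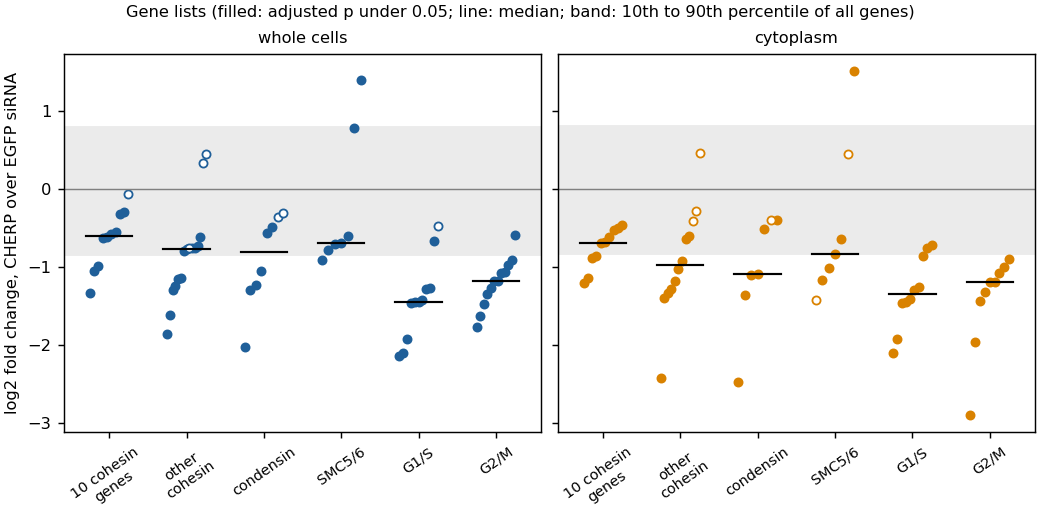
Log2 fold change of each gene in 6 lists, CHERP over EGFP siRNA, in whole cells and in the cytoplasm. Each point is 1 gene, filled where the limma adjusted p was under 0.05, the line is the list's median, and the band spans the 10th to the 90th percentile of all genes. The medians of the G1/S genes, -1.44 and -1.35, lie below those of the 10 cohesin genes, -0.60 and -0.69, and SMC6 is the highest point in both panels.

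The genes outside these lists whose pattern was most like that of CDCA5 were DCLRE1B, EME1 and ARHGEF40. Likeness was the Euclidean distance over the 8 libraries of log2 abundance, each gene centred on its EGFP siRNA mean in the same fraction, among 7059 genes. The distances were 0.218, 0.290 and 0.312. Their log2 fold changes in whole cells were -1.28, -1.35 and -1.29, beside -1.34 for CDCA5.

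The promoters of the 10 genes were searched on both strands for letters known from cell cycle genes. They ran from 250 bases before to 50 after the start in RefSeq (GRCh38.p14). A link between these letters and the fall in abundance was not tested. Promoters of 9 members were found, with WAPL under its present name, and RAD21 had no entry. A member was counted when any of its promoter entries held the letters, whereas the shares given are over single entries. A gene with several entries had more chances, so the member counts and the shares are not like for like. An E2F site, spelled TTTCCCGC, TTTCGCGC, TTTGCCGC or TTTGGCGC, was in 5 of the 9 (SMC1A, STAG1, STAG2, NIPBL and CDCA5), against 3.31% of all 35116 promoters and 5.18% of the 10764 whose gene was tested for abundance in whole cells. CCAAT was in 5 of the 9, against 34.6% of all promoters and 35.2% of those of tested genes. TTTGAA, the CHR element, was in 2 (SMC3 and PDS5B), against 15.2% and 10.5%. The promoter of CDCA5 is shown as the member with the largest fall, at chr11:65083991-65084290 (GRCh38.p14, minus strand), with the E2F letters in capitals.
CDCA5 promoter: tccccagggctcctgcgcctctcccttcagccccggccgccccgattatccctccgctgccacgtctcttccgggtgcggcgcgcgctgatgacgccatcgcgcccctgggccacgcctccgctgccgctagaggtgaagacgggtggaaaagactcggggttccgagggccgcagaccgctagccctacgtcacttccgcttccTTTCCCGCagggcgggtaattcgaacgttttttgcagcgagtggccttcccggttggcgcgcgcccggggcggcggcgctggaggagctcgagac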

How the data were processed

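Reads had been mapped by the authors to hg19 with STAR 2.5.2b, per the labels, and rMATS (version not given in the sources used here) gave 10 event tables, 5 event types in 2 fractions. The deposited reads on the inclusion and skipping forms are unnormalized and were taken from table fields that join the 2 libraries of a group, so they were not handled as a count table. The deposited signal of the expression table is the authors' mean of normalized counts per siRNA, from RSEM 1.2.25 with GENCODE 19, for the genes past the authors' threshold. The authors' fold changes, p-values, FDR and probabilities, and 20 columns of inclusion levels, were not used.

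Abundance, with a pseudocount of 0.01 and a minimum mean of 20 reads, was tested with limma 3.58.1 in R 4.3.3 (eBayes with trend), each fraction alone and both for the interaction. Groups were those of the labels. Events were tested in a quasi-binomial model with a dispersion that was shared within an event type along a trend on mean reads, with a floor of 1. Groups without reads on 1 form gave no degree of freedom. The moderation took all its weight from that trend (infinite prior degrees of freedom), and an event's own spread counted for nothing. All genes or events entered each fit and each adjustment. On simulated data the share of false calls by limma came out above the threshold, so calls close to it are less sure. Such calls include NIPBL and PDS5A in whole cells and SMC3 in the cytoplasm. All members are named. The events named are those with FDR under 0.05 and, per member, the event with a mean of at least 20 reads, no overlap and the largest difference of at least 0.1. From other lists up to 4 called genes with the largest change were named, and the remaining genes named were chosen after their values were seen. The members and lists were chosen with earlier results of these data known. Sequences and exons come from GRCh37 with GENCODE 44 lifted to it. Of 209 introns beside member exons 99.5% had GT and AG ends in it. The alternatives were other pseudocounts, read minimums, scalings, event types, dispersion rules and the removal of each library.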

Additional observations from a re-analysis of the deposited data

How the results depend on the processing

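The count of cohesin genes that fell, 9 in whole cells and 10 in the cytoplasm, was 6 to 9 and 7 to 10 under the 8 other settings of each fraction, and all log2 fold changes kept their sign. Leaving out single libraries gave 6 to 9 in whole cells and 8 in the cytoplasm. CDCA5, PDS5B, RAD21 and STAG1 kept their call in every setting in which they were tested. WAPAL in whole cells was called in none of 12. In the cytoplasm SMC3, STAG2 and PDS5B had too few reads for the minimum of 100. Without the intensity trend in eBayes the calls of NIPBL, PDS5A and STAG2 in whole cells and SMC1A in the cytoplasm were lost.

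The single member event that passed, NIPBL exon 10, was lost under 4 of 8 alternatives. With limma on the log2 odds 0 member events passed, with 12 at an unadjusted p under 0.05. With a minimum of 50 reads 2 passed, the second being the MXE event of exons 10 and 11 (FDR = 0.0442). Leaving out each library gave 0 to 1, and NIPBL exon 10 was lost without the second EGFP siRNA library (FDR = 0.208), the first CHERP siRNA library (0.250) and the second (0.514). Its difference stayed between 0.191 and 0.239. In the cytoplasm and for both interactions the count of members stayed at 0 in all alternatives.

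No paired analysis was possible because the fields of the deposited tables carry no replicate number. Cytoplasmic depth, 30 to 1161 reads per member and library, limits what can be seen there.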
